A study of Mus musculus with 8 samples.

Results

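The genes described here are the nuclear genes of the Nduf family, most of which encode subunits of mitochondrial complex I, and the protein-coding genes of the mitochondrial genome, measured in the mouse hippocampus after overexpression of miR-708-5p. A gene was a member if it was protein-coding and its symbol started with Ndufa, Ndufb, Ndufc, Ndufs or Ndufv followed by a digit, was Ndufab1, or started with mt-. No measured value entered this rule. It gave 53 of the 40659 genes in the count table, 40 of them nuclear on 16 chromosomes and 13 mitochondrially encoded. Of these, 39 nuclear and 9 mitochondrially encoded genes had enough counts to be tested among 17252 genes. Ndufb11b, a relative of Ndufb11, had 0 counts in all 8 libraries and was not tested.

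Both groups were male C57BL/6JRj mice that received a recombinant adeno-associated virus (rAAV) in the dorsal and ventral hippocampus at 7 to 8 weeks of age. The virus of the hp708 group (n = 4) carried a hairpin that produces miR-708-5p and that of the hpCTL group (n = 4) a control hairpin. In both, the hairpin was placed in the 3′ untranslated region of EGFP driven by the synapsin promoter, which is active in neurons. Whole hippocampi were taken 4 weeks after surgery, and the labels give the tissue an age of 12 to 13 weeks. PolyA-selected RNA was sequenced to 22606824 to 28462428 counts per library. The libraries hold transduced and untransduced cells of every type, so that fewer cells of a type and less RNA per cell cannot be told apart. Mir708 had 0 counts in each library. The mature microRNA itself was not measured in these libraries. By qPCR, the study reports it as raised in hippocampi of mice taken after behavioral testing. The study follows Nnat as a target of the microRNA and reports its mRNA as lower by qPCR. Here Nnat lay between 260 and 352 CPM (read counts divided by library size, TMM-scaled) in hpCTL and between 156 and 310 CPM in hp708. The groups overlapped, and its log2 fold change (hp708 over hpCTL) was -0.21 ± 0.12 (SE). Its false discovery rate in edgeR's quasi-likelihood test was 0.735, so that Nnat was not called lower here. The source data of a qPCR panel place 1 of the hp708 animals, replicate 1 here, in the hpCTL group, and it was kept in the group its label gives. The 6 neuronal marker genes checked were all tested, with a mean log2 CPM of 9.11 to 9.20 in hpCTL and 9.05 to 9.24 in hp708, and all 4 choroid plexus markers were detected as well, with Ttr between 25.6 and 4106 CPM over the 8 libraries.

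Complex I (NADH:ubiquinone oxidoreductase) is the largest enzyme of the respiratory chain. It passes electrons from NADH to ubiquinone and pumps protons across the inner mitochondrial membrane, and the gradient drives ATP synthesis by complex V. Its peripheral arm consists of the N module, which oxidizes NADH, and the Q module, which reduces ubiquinone, and its membrane arm holds the proton pumps. The core of the membrane arm is encoded by 7 genes of the mitochondrial genome, mt-Nd1 to mt-Nd6 and mt-Nd4l, and the core of the peripheral arm by 7 nuclear genes. The other nuclear subunits are accessory. The remaining 6 protein-coding genes of the mitochondrial genome belong to complex III (mt-Cytb), complex IV (mt-Co1, mt-Co2, mt-Co3) and complex V (mt-Atp6, mt-Atp8). Neurons draw most of their ATP from this chain.

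The sequence of the overexpressed microRNA is shown because sites for it were counted in the members, and its seed, bases 2 to 8, is in capitals (RefSeq, mature sequence).
miR-708-5p: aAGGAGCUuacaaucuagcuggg

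A second set of sequences is shown because parts of the mitochondrial genome also occur in nuclear chromosomes, among them the genes with few or no counts. A stretch of nuclear chromosome 1 at chr1:24650616-24655269 (GRCm39) holds a copy of the mitochondrial genome from base 6390 to 11042 at 99.94% identity, with 3 mismatched or gapped letters in 4654. The first 120 bases of mt-Atp6 at chrM:7927-8046 are letter for letter the same as the minus strand of chr1:24653613-24653732. The first 120 bases of mt-Cytb at chrM:14145-14264 have their closest match at chr4:79922226-79922345 and differ from it at 8 letters, which are in capitals in both.
mt-Atp6, both places: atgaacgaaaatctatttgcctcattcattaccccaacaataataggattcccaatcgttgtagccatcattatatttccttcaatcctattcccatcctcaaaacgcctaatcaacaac
mt-Cytb, mitochondrial: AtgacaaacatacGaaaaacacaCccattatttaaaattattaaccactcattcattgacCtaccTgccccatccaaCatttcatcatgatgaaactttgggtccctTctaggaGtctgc
mt-Cytb, chromosome 4: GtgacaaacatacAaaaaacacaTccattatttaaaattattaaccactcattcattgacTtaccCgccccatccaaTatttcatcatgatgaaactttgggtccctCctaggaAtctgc

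None of the nuclear members was called between hp708 and hpCTL. At a false discovery rate (FDR, Benjamini-Hochberg over all 17252 genes) below 0.05, the edgeR quasi-likelihood F test, fitted with 3 surrogate variables (estimated factors for unknown sources of variation), called 0 of 39, and the likelihood ratio test, DESeq2 and the fit without surrogate variables also called 0. Over all genes that threshold was passed by 0.0058% (1 gene) in the quasi-likelihood test, by 127 genes in the likelihood ratio test, by 96 in DESeq2 and by 0 without surrogate variables. At an unadjusted p below 0.05 the quasi-likelihood test had 4 nuclear members lower in hp708 and 0 higher, against 4.87% of all tested genes lower and 2.82% higher. The likelihood ratio test had 1 nuclear member below that p, and DESeq2 and the fit without surrogate variables had 0. All 39 fitted log2 fold changes (hp708 over hpCTL) were below 0, between -0.32 and -0.03 with a median of -0.08, where 9176 of the 17252 tested genes were below 0 with a median of -0.01 over all. The lowest FDR among them was 0.543, that of Ndufa6. No member had all 4 hp708 libraries above or all below the 4 hpCTL libraries, which over all tested genes happened in 0.701% and 0.812%. A two-sided exact permutation of the 8 libraries, which can go no lower than 0.0286, gave a lowest p of 0.0571 among the nuclear members.

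**Figure D1:**
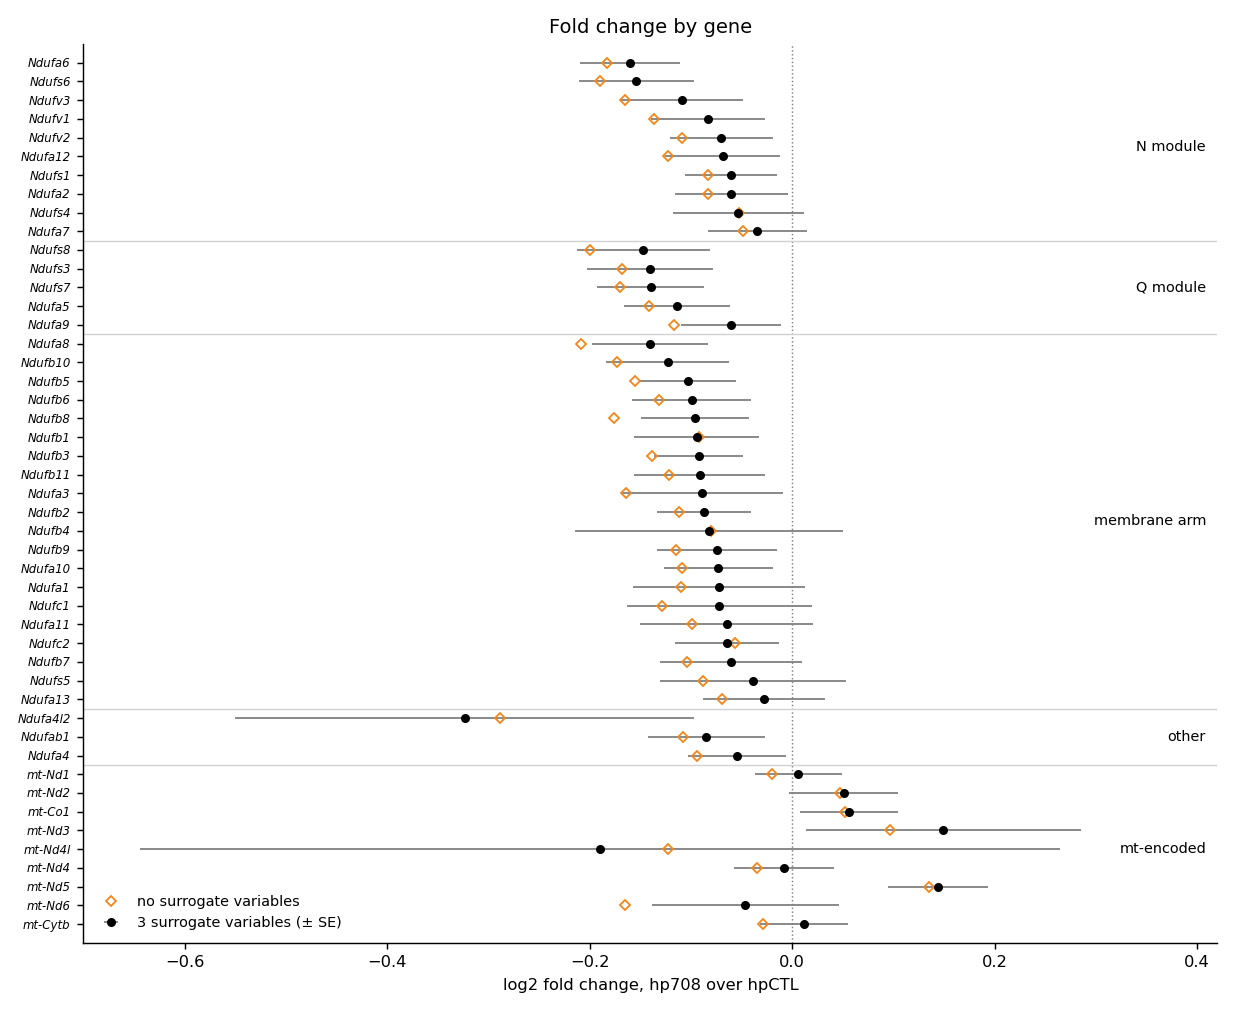
Log2 fold change of hp708 over hpCTL (x axis) for 38 of the nuclear genes and the 9 mitochondrially encoded genes tested, grouped by complex I module, as fitted with 3 surrogate variables (filled circles, bars are ± 1 standard error) and without (open diamonds). All nuclear values shown lie left of 0. Apart from Ndufa4l2 (-0.32 with and -0.29 without surrogate variables), they lie within -0.16 to -0.03 as circles and -0.21 to -0.05 as diamonds, and the mitochondrially encoded ones lie on both sides.

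In the Q module, which carries electrons to ubiquinone, all 6 tested genes had a negative fitted value with a median of -0.13, or -0.05 without hpCTL replicate 1. At an unadjusted p below 0.05, where 4.87% of all tested genes were lower, 1 of the 6 was lower, or 0 without surrogate variables. That gene was Ndufs7 (ENSMUSG00000020153, chr10:80084941-80095049, plus strand, GRCm39), a core subunit that carries an iron-sulfur cluster. It had 91.3, 67.5, 63.8 and 67.1 CPM in hpCTL replicates 1 to 4 and 61.3, 72.2, 61.6 and 62.5 CPM in hp708 replicates 1 to 4. The groups overlapped, with hpCTL replicate 1 far above the other hpCTL libraries and hp708 replicate 2 above the other hp708 libraries. The log2 fold change was -0.14 ± 0.05 (SE, FDR 0.613), and it was -0.07 without hpCTL replicate 1 and -0.04 without hp708 replicate 1.

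Ndufs8, another iron-sulfur core subunit of that module, had 78.5, 58.9, 55.8 and 56.6 CPM in hpCTL and 55.2, 56.0, 51.0 and 55.4 CPM in hp708. Only hp708 replicate 2 reached into the hpCTL range, and just above its lowest library. The fitted log2 fold change was -0.15 ± 0.07 (SE, FDR 0.669) and the exact p 0.0571. It was -0.07 without hpCTL replicate 1, -0.08 without hp708 replicate 3 and -0.09 without hp708 replicate 1. Ndufs3, also a core subunit, had -0.14 ± 0.06 (SE, FDR 0.669), with 88.5, 65.4, 64.8 and 73.5 CPM in hpCTL and 62.9, 72.3, 63.2 and 61.7 CPM in hp708. Here hpCTL replicate 1 and hp708 replicate 2 were the highest of their groups, and the groups overlapped. The fitted value of Ndufs3 was -0.07 without hpCTL replicate 1, -0.08 without hpCTL replicate 4 and -0.05 without hp708 replicate 1.

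The N module holds the NADH-binding flavoprotein and the first iron-sulfur clusters, and its 10 tested genes had a median fitted value of -0.07, or -0.02 without hpCTL replicate 1. At an unadjusted p below 0.05, where 4.87% of all tested genes were lower, 2 of them were lower, or 0 without surrogate variables. One was Ndufa6 (ENSMUSG00000022450, chr15:82234340-82238523, minus strand), an accessory subunit of the LYR motif family that binds the acyl carrier protein. Its levels were 75.1, 57.9, 58.3 and 58.7 CPM in hpCTL and 55.1, 64.5, 53.1 and 47.5 CPM in hp708. One hpCTL library was high, and 3 of the 4 hp708 libraries were below all 4 hpCTL libraries. It had a log2 fold change of -0.16 ± 0.05 (SE, unadjusted p 0.0137 from edgeR's quasi-likelihood test), or -0.10 without hp708 replicate 4.

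The other was Ndufs6 (ENSMUSG00000021606, chr13:73464968-73476661, minus strand), a zinc-binding subunit added late in assembly, with 45.2, 33.2, 33.5 and 32.7 CPM in hpCTL and 31.2, 34.8, 30.1 and 30.9 CPM in hp708. Again hpCTL replicate 1 was the only library that stood well above the rest. The fitted difference was -0.15 ± 0.06 (SE, FDR 0.600), and it was -0.09 without hpCTL replicate 1 and -0.07 without hp708 replicate 1. Among the core subunits of the module, Ndufv1, which binds NADH and the flavin, had -0.08 ± 0.06, Ndufv2 -0.07 ± 0.05 and Ndufs1, the largest subunit, -0.06 ± 0.05. Over the 7 nuclear core subunits of both modules the median was -0.08, or -0.04 without hpCTL replicate 1. In Ndufs1, hpCTL replicate 1 was 1.15 times the mean of the other 7, the smallest such ratio among the nuclear members. Ndufs4 (-0.05 ± 0.06) and Ndufa7 (-0.03 ± 0.05) were among the 5 fitted values closest to 0, and Ndufa2 had -0.06 ± 0.06.

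The nuclear subunits of the membrane arm had a median fitted value of -0.08 over 20 genes. Without hpCTL replicate 1 it was -0.01, and 0.02 when surrogate variables were left out as well. At an unadjusted p below 0.05, 1 of the 20 genes was lower, or 0 without surrogate variables. That is near the 4.87% of all tested genes that were lower. The 1 gene was Ndufa8 (ENSMUSG00000026895, chr2:35917572-35939425, minus strand), a subunit with paired cysteine motifs on the intermembrane side of the arm. It had 106, 77.9, 67.5 and 75.2 CPM in hpCTL and 72.1, 77.6, 68.0 and 65.3 CPM in hp708. The lowest hpCTL library was below 3 of the hp708 libraries, and the log2 fold change was -0.14 ± 0.06 (SE, FDR 0.642), or -0.08 without hpCTL replicate 1. Ndufb10, also of that family, had -0.12 ± 0.06 (-0.04 without hpCTL replicate 1, -0.05 without hp708 replicate 1 and -0.08 without hp708 replicate 3), while Ndufc2 had -0.06 ± 0.05, Ndufb4 -0.08 ± 0.13 and Ndufs5 -0.04 ± 0.09. The value nearest to 0 among all nuclear members was that of Ndufa13, a subunit also known as GRIM-19, at -0.03 ± 0.06, with 142, 102, 92.2 and 99.8 CPM in hpCTL and 99.0, 116, 98.3 and 101 CPM in hp708. Without hpCTL replicate 1 its fitted value was 0.05.

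Outside the modules, Ndufab1 is the mitochondrial acyl carrier protein, which complex I shares with fatty acid synthesis. Its log2 fold change was -0.08 ± 0.06, or -0.11 without surrogate variables. Ndufa4, named for complex I but now assigned to complex IV, had -0.05 ± 0.05, or -0.09 without surrogate variables. It was at 207, 158, 149 and 157 CPM in hpCTL and 153, 175, 159 and 142 CPM in hp708. The lowest fitted value of all was that of Ndufa4l2 (ENSMUSG00000040280, chr10:127350818-127353038, plus strand), a paralogue of Ndufa4 that is induced by hypoxia. It was also the least abundant nuclear member tested, with 75, 67, 47 and 56 counts in hpCTL and 46, 42, 44 and 61 counts in hp708, or 2.68, 2.93, 1.93 and 2.10 CPM against 1.67, 1.83, 1.88 and 2.52 CPM. The groups overlapped through hp708 replicate 4, and the log2 fold change was -0.32 ± 0.23 (SE, FDR 0.787), with -0.51 to -0.19 when 1 library was left out.

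The nuclear members moved together between libraries, and 1 control library was the highest for nearly all of them. In hpCTL replicate 1 the CPM was the highest of the 8 libraries for 38 of the 39, the exception being Ndufa4l2. Of all tested genes, 25.5% had their highest value in that library. Relative to the mean of the other 7 libraries the nuclear members were 1.15 to 1.54 times as high there, with a median of 1.36 times. Within hp708, replicate 2 was the highest library for 30 of the 39, with a median of 1.13 times the mean of the other 3. Over the 7 libraries other than hpCTL replicate 1, the highest CPM was at the median 1.19 times the lowest.

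**Figure D2:**
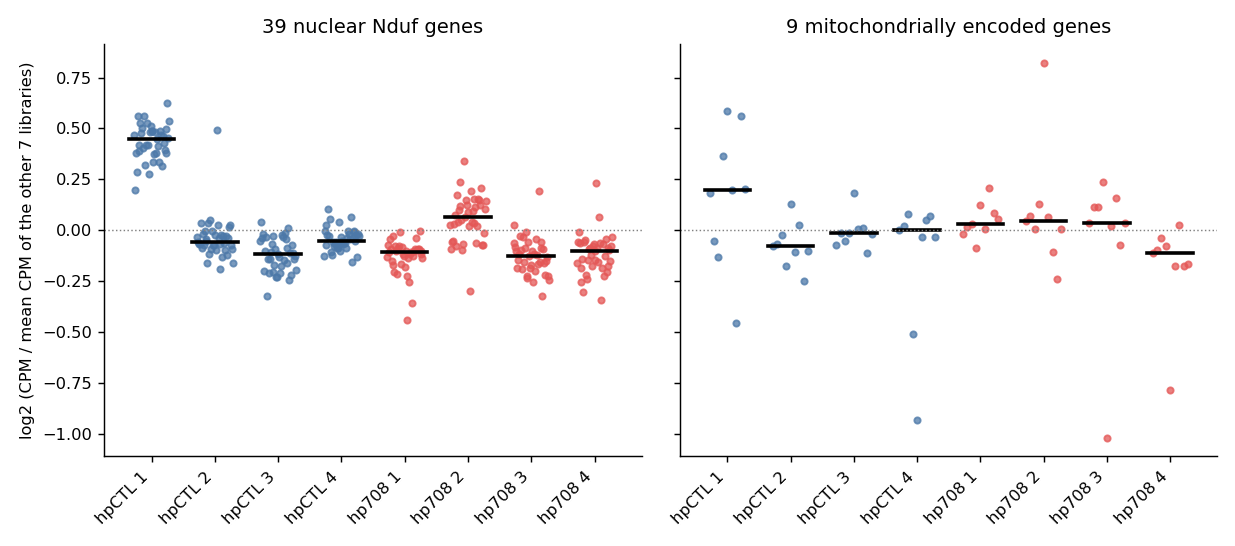
Log2 ratio of each gene's CPM to its mean CPM in the other 7 libraries (y axis) by library (x axis), for the 39 nuclear (left) and the 9 mitochondrially encoded genes tested (right), with hpCTL in blue and hp708 in red. Each point is a gene and each bar the median, which for the nuclear genes is 0.45 in hpCTL replicate 1, 0.06 in hp708 replicate 2 and between -0.13 and -0.05 in the others.

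The group difference changed when that library was left out. The mean CPM of the 4 hpCTL libraries was above that of hp708 for 39 of 39 nuclear members, but the mean of hpCTL replicates 2 to 4 was above it for 19 of 39. When hpCTL replicate 1 was left out, the median log2 fold change was -0.03 with 3 surrogate variables and 0.01 without, against -0.08 and -0.12 over all 8 libraries. Leaving out hp708 replicate 1, the animal with conflicting labels, gave -0.01 and -0.10. The number of nuclear members lower at an unadjusted p below 0.05 was 1 without hpCTL replicate 1 and 0 without hp708 replicate 1, both with 3 surrogate variables, and the 1 was Ndufa6.

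Several other features of hpCTL replicate 1, and to a lesser extent of hp708 replicate 2, moved with the members, and their part in the result was not tested. Genes with short transcripts were higher in hpCTL replicate 1. The median log2 CPM relative to the mean of the 8 libraries was 0.27 for 473 protein-coding genes of up to 1500 bases of exon, 0.19 from 1500 to 3000 bases, 0.07 from 3000 to 6000 and -0.06 above 6000. In hp708 replicate 2 these medians were 0.09, 0.10, 0.03 and -0.03. The nuclear members had a median exon length of 3826 bases against 6180 for all tested protein-coding genes. All 7 RNAs of a list retained in the nucleus were tested, and their mean log2 CPM was 8.56 in hpCTL replicate 1 and 8.77 to 9.02 in the other 7, with the 8.77 in hp708 replicate 2. The list of 4 choroid plexus markers did not move with the members. It was lowest in hpCTL replicate 1, at 1.96, highest in hp708 replicate 2, at 7.17, and between 2.90 and 6.90 in the others. Of 78 cytosolic ribosomal protein genes, 73 were highest in hpCTL replicate 1. The mean log2 CPM of that list was 7.20 there, 7.02 in hp708 replicate 2 and 6.70 to 6.89 in the other 6.

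Markers of other cell types also differed between libraries and groups, with 0 of them at an FDR below 0.05, and their part in the values of the members was not tested. All 6 microglia markers had a negative log2 fold change with 3 surrogate variables, with a median of -0.25. At an unadjusted p below 0.05, 4 of them were lower, where 4.87% of all tested genes were lower. Without surrogate variables the median was -0.10 and 0 had such a p. Their mean log2 CPM lay between 6.35 and 6.78 in hpCTL, lowest in replicate 1, and between 6.09 and 6.89 in hp708. The 2 T cell and the 2 plasma cell markers were all lower at that p, with medians of -0.996 and -0.59, and 0 were without surrogate variables. In each of these lists the groups overlapped. The 4 oligodendrocyte markers had 0 genes at that p, and their mean log2 CPM was highest in the same library as the nuclear members within each group, at 8.96 in hpCTL replicate 1 against 8.54 to 8.85 and at 9.46 in hp708 replicate 2 against 8.54 to 9.04. Of 5 astrocyte markers 1 was higher at that p, where 2.82% of all tested genes were higher. Of the neuronal, endothelial, choroid plexus and blood markers 0 had such a p with 3 surrogate variables. Without them it was 1, one of the 2 blood markers.

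The mitochondrially encoded genes were by far the most abundant members, but 6 of the 13 had few or no counts. They took up 3.00% to 3.31% of all counts in each library, and 6 of them made up nearly all of it. In the order of the genome, mt-Nd1 had 4717 RPKM (CPM per kilobase of exon, mean of 8), mt-Nd2 3179, mt-Co1 7169, mt-Nd4 2403, mt-Nd5 1702 and mt-Cytb 5853. The ranges over the 8 libraries overlapped only between mt-Co1, the catalytic subunit of complex IV, and mt-Cytb, the cytochrome b of complex III. The most abundant nuclear member by the same measure, Ndufb10, had 79.4 RPKM, and mt-Nd6, the only gene of these on the other strand, had 45.8.

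The genes between mt-Co1 and mt-Nd4 were at or near 0. mt-Co2, mt-Atp8 and mt-Atp6 had 0 counts in all 8 libraries, which allows up to 0.107 to 0.131 CPM (3 counts per library, counting error only). mt-Co3 had 7, 8, 4 and 6 counts in hpCTL and 13, 6, 8 and 6 in hp708, too few to be tested. mt-Nd4l had 5 to 16 counts and mt-Nd3 3.38 to 5.75 CPM. These genes lie in the stretch that chromosome 1 holds in copy. Every 100-base window of mt-Co2, mt-Atp8, mt-Atp6, mt-Co3 and mt-Nd4l, and 98.8% of those of mt-Nd3, occurred exactly in the nuclear genome, as the mt-Atp6 sequence above does. The share was 60.8% for mt-Nd4, 30.8% for mt-Co1 and 3.19% for mt-Nd2, and it was 0 for mt-Nd1, mt-Nd5, mt-Nd6 and mt-Cytb. How reads with several matches were counted is not stated, and its part in these counts was not tested. The values of all these genes are given as counted. mt-Atp8 and mt-Atp6 also overlap each other, and the overlap of genes on the same strand can remove reads from both. Among the nuclear members 10 of 40 had any 100-base window with an exact second copy, the most in Ndufb4 with 22.9%.

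**Figure D3:**
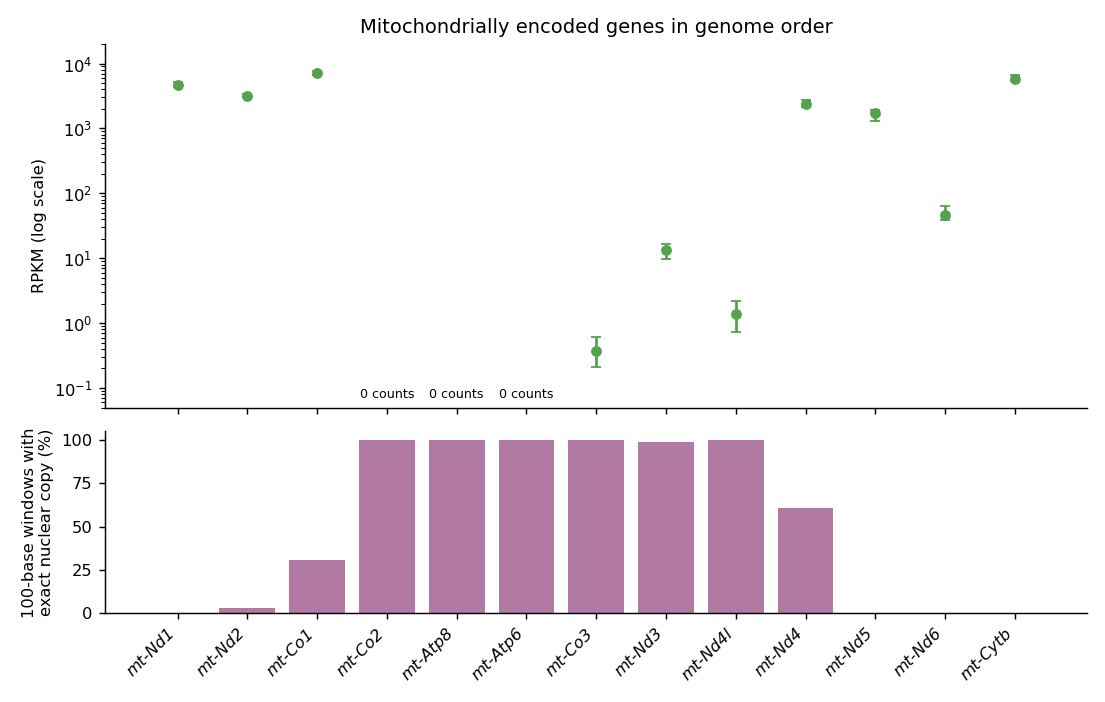
Top, RPKM of the 13 mitochondrially encoded genes in genome order on a log scale, with points for the mean of 8 libraries and bars for the lowest and highest. Bottom, the percentage of each gene's 100-base windows that occur exactly in the nuclear genome, which is 98.8 or more for the 6 genes at 0 to 13.3 RPKM.

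None of the 9 mitochondrially encoded genes tested was called between the groups at an FDR below 0.05 by the quasi-likelihood test, the likelihood ratio test, DESeq2 or the fit without surrogate variables. The lowest FDR was 0.582 by the quasi-likelihood test and 0.483 by DESeq2. The fitted log2 fold changes had a median of 0.01 and ran from -0.19 in mt-Nd4l to 0.15 in mt-Nd3, both genes with few counts and errors of 0.45 and 0.14. That of mt-Nd3 was 0.10 without surrogate variables, and 0.07 to 0.22 when 1 library was left out. At an unadjusted p below 0.05 the quasi-likelihood test, the likelihood ratio test and DESeq2 each had 1 gene, mt-Nd5, which was higher in hp708, and the fit without surrogate variables had 0. Against 1 of 9 stood 2.82% of all tested genes that were higher.

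mt-Nd5 (ENSMUSG00000064367, chrM:11742-13565, plus strand) encodes a proton-pumping subunit at the far end of the membrane arm. It had 2346, 3155, 3128 and 3205 CPM in hpCTL and 3520, 2907, 3419 and 3155 CPM in hp708. The groups overlapped, and hpCTL replicate 1 was the lowest library by a wide margin while hp708 replicate 2 was the lowest of its group. The log2 fold change was 0.14 ± 0.05 (SE, FDR 0.582), and the exact p was 0.343. Its log2 fold change was 0.07 without hpCTL replicate 1 and 0.01 without hp708 replicate 1, the animal with conflicting labels. No mitochondrially encoded gene had an unadjusted p below 0.05 in these fits, nor without hpCTL replicate 3, hpCTL replicate 4 or hp708 replicate 3.

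mt-Nd1, which joins the 2 arms at the ubiquinone site, went the other way in that library. Its levels were 5038, 4306, 4314 and 4522 CPM in hpCTL and 4470, 4636, 4610 and 4217 CPM in hp708, and its log2 fold change was 0.01 ± 0.04, or -0.02 without surrogate variables. mt-Cytb also had its highest value in hpCTL replicate 1, with 7571 CPM against 6297 to 6620 in the other hpCTL and 6054 to 6914 in the hp708 libraries, and a log2 fold change of 0.01 ± 0.04, or -0.03 without surrogate variables. The ratio of mt-Nd5 to mt-Nd1 CPM was 0.466 in hpCTL replicate 1, 0.627 in hp708 replicate 2 and 0.709 to 0.787 in the other 6 libraries.

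Of the others, mt-Co1 had 0.06 ± 0.05, mt-Nd2 0.05 ± 0.05, mt-Nd4 -0.01 ± 0.05 and mt-Nd6 -0.05 ± 0.09. Without surrogate variables they had 0.05, 0.05, -0.03 and -0.16 in the same order. Without hp708 replicate 3, mt-Co1 had 0.008. mt-Nd6 is transcribed from the opposite strand and was measured at 33.1, 20.4, 22.2 and 24.8 CPM in hpCTL and 25.0, 20.5, 22.8 and 21.4 CPM in hp708. Its value in hpCTL replicate 1 was the highest of the 8. The strand setting of the counting is not stated, so that reads from overlapping parts of its neighbours cannot be told apart from its own.

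Summed over all members of each kind, the nuclear members were highest in hpCTL replicate 1 and next in hp708 replicate 2, each well above the rest of its group. They summed to 3531 CPM in hpCTL replicate 1 and to 2551 to 2818 CPM in the other 7 libraries, with the 2818 in hp708 replicate 2, or 2858 ± 451 CPM in hpCTL and 2624 ± 130 CPM in hp708 (SD, n = 4 each). With hpCTL replicates 2 to 4 alone the mean was 2633 CPM. The mitochondrially encoded members summed to 31770 ± 691 CPM in hpCTL and 32290 ± 1399 CPM in hp708. The mitochondrial sum was 9.10 times the nuclear one in hpCTL replicate 1 and 11.5 to 13.2 times in the other 7 libraries. This sum holds 0 counts of mt-Co2, mt-Atp8 and mt-Atp6 and few of mt-Co3, mt-Nd3 and mt-Nd4l. The sum and the ratio are therefore given as counted, and not as the level of all mitochondrially encoded genes. The groups overlapped in both sums, and no test was made on sums over the members.

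**Figure D4:**
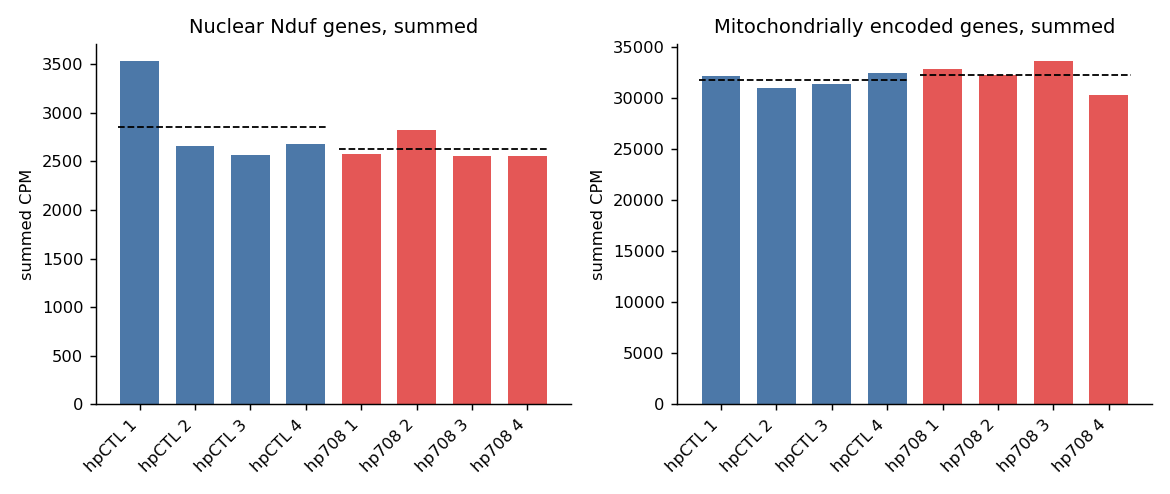
Summed CPM of the nuclear members (left) and of the mitochondrially encoded members (right) in each library, with hpCTL in blue and hp708 in red, axes from 0 and dashed lines at the group means. The left panel shows hpCTL replicate 1 at 3531 against 2551 to 2818 for the others, and the right panel 30360 to 33640 in all libraries. The right panel is as counted, with 0 counts from mt-Co2, mt-Atp8 and mt-Atp6.

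The 2 mitochondrial ribosomal RNAs, which carry only short tails and are not protein-coding, were followed as a comparison within the same genome. They took up 0.898% of the counts in hpCTL replicate 1, 0.770% in hp708 replicate 2 and 0.484% to 0.650% in the other 6. These 2 libraries were thus the highest in both the mitochondrial ribosomal RNAs and the nuclear members.

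The rest of the oxidative phosphorylation system was read from lists chosen with earlier results known, and none of its genes passed an FDR of 0.05 either. Complex II, which feeds electrons from succinate, had a median log2 fold change of -0.07 over 4 genes, nuclear complex III -0.08 over 9, nuclear complex IV -0.13 over 10 and nuclear complex V -0.09 over 15. The number lower at an unadjusted p below 0.05 was 1 of 4, 1 of 9, 6 of 10 and 1 of 15, with 0 higher in each, against the 4.87% of all tested genes that were lower. Without surrogate variables it was 0 in each of these lists. Cox5b, a zinc-binding subunit, had the lowest p of the complex IV list, with a log2 fold change of -0.15 ± 0.04 (SE, FDR 0.511). It was the only gene of that list without overlap between the groups, and the complex III list also had 1 such gene. Over all tested genes, hp708 lay entirely below hpCTL in 0.812%. Cox5b had 144, 109, 107.8 and 111 CPM in hpCTL and 103, 107.5, 102 and 96.4 CPM in hp708, so that the groups nearly touched. It was chosen after its values were seen. As in complex I, hpCTL replicate 1 held the highest value for 4 of 4, 9 of 9, 10 of 10 and 14 of 15 of these genes, and without that library the medians, with 3 surrogate variables, were -0.02, -0.03, -0.05 and -0.04. The cytosolic ribosomal protein genes had 46 of 78 lower at an unadjusted p below 0.05 and 0 higher, but 1 of 78 below that p without surrogate variables. Their median of -0.15 became -0.07 without hpCTL replicate 1, with 3 surrogate variables.

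Genes that build complex I or handle mitochondrial RNA were read in the same way. The 19 assembly factors, which put the complex together but are not part of it, had a median of -0.04 with 7 fitted values above and 12 below 0, and 0 had an unadjusted p below 0.05. Without hpCTL replicate 1 the median was -0.004, and 0.02 when surrogate variables were left out as well. Ndufaf1, an early membrane arm factor, had 24.9, 17.8, 20.1 and 19.6 CPM in hpCTL and 17.9, 16.2, 19.4 and 19.2 CPM in hp708. In 16 of the 19 the highest library was hpCTL replicate 1. The 16 genes for mitochondrial RNA synthesis and handling, among them the transcription factor Tfam and the RNA polymerase Polrmt, had a median of -0.02, and 0 of them had an unadjusted p below 0.05. Here 6 of 16 were highest in hpCTL replicate 1.

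Among 6 regulators of mitochondrial biogenesis, 1 was higher at an unadjusted p below 0.05, where 2.82% of all tested genes were higher, and 0 had such a p without surrogate variables. Ppargc1b, a coactivator of oxidative genes related to PGC-1alpha, had 1.71, 4.85, 4.88 and 5.52 CPM in hpCTL and 6.05, 2.48, 6.39 and 5.74 CPM in hp708, with a log2 fold change of 0.33 ± 0.13 (SE, FDR 0.620). The 2 low libraries were hpCTL replicate 1 and hp708 replicate 2. Ppargc1a, which encodes PGC-1alpha, had its lowest values in the same libraries, 34.3 and 36.3 CPM, where the other 6 lay between 39.2 and 49.8 CPM. Its log2 fold change was 0.04 ± 0.08.

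**Figure D5:**
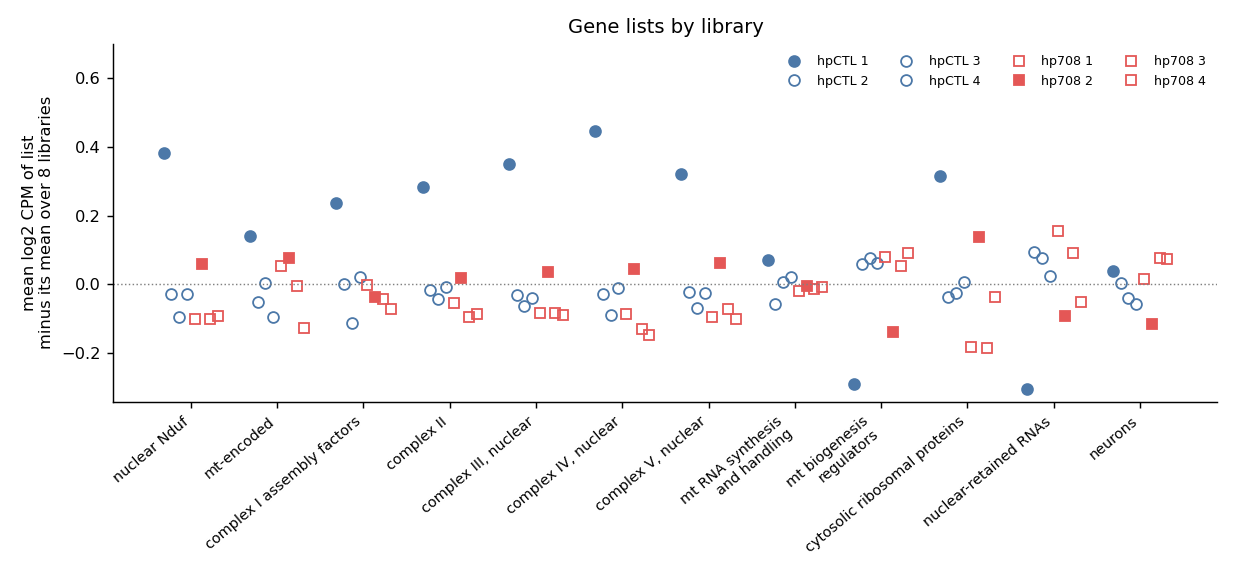
Mean log2 CPM of each gene list minus its mean over the 8 libraries (y axis), with hpCTL as circles and hp708 as squares and hpCTL replicate 1 and hp708 replicate 2 filled. In hpCTL replicate 1 the nuclear Nduf genes are 0.38 above their mean, complexes II to V 0.28 to 0.45 above and the biogenesis regulators and nuclear-retained RNAs 0.29 and 0.30 below, while the neuronal markers are 0.04 above.

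Per length, the nuclear members spanned 1.91 to 79.4 RPKM with a median of 17.9, measured over the merged exons of all annotated transcripts. The highest were Ndufb10 (79.4 RPKM), Ndufa2 (78.2) and Ndufc2 (72.2), and the lowest Ndufa4l2 (1.91), Ndufb4 (3.13) and Ndufab1 (3.89). Neighbours in this order overlapped over the 8 libraries throughout the nuclear members, so that the order is coarse. It also depends on the length taken, since long minor transcripts enlarge the merged exons of some genes. With the length of the canonical transcript, a choice added after the data were seen, Ndufa4 had 307 RPKM in place of 18.8, Ndufb10 133, Ndufb4 8.10 and Ndufa4l2 2.27. The comparison between groups does not use the length.

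Matches to the seed of miR-708-5p occurred in the nuclear members at a share near that in other genes. In the longest annotated 3′ untranslated region, 9 of 39 (23.1%) held a 7-base match and 0 an 8-base match, where 26.5% of 14808 tested protein-coding genes with such a region held a match of either kind. The median length of this region was 533 bases in the members and 1865 bases in the other set. They included Ndufa4, Ndufa8, Ndufab1, Ndufs3, Ndufs4, Ndufs5 and Ndufv2. The median log2 fold change of the 9 was -0.07, and that of the other nuclear members tested -0.09. A match is a stretch of letters and not a site known to be used.

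Promoter windows from 250 bases before to 50 after the start were found in RefSeq (GRCm38.p6) for 34 of the 40 nuclear members. They were searched on both strands for the letters GCGCATGC (nuclear respiratory factor 1, NRF-1), CCGGAAGT (the ETS factor GABP) and AAGATGGCG (YY1), factors known to act at genes of the respiratory chain. No window of a member held more than 1 of the 3 motifs. NRF-1 letters were in 3 windows (8.82%), among 2.81% of all 27025 windows and 4.85% of those of tested genes. ETS letters were in 1 (2.94%, against 4.00% and 7.35%) and YY1 letters in 5 (14.7%, against 1.5% and 2.77%). The 4 nuclear members with an unadjusted p below 0.05 each held one of them, NRF-1 letters in Ndufa6 and Ndufa8 and YY1 letters in Ndufs6 and Ndufs7. The other 5 members with a motif had no such p. The 4 were picked by their values in these same data, and 0 nuclear members were lower at that p without surrogate variables or with DESeq2. Whether a motif goes with a lower level was not tested. Any of the 3 motifs was in 9 of the 34 windows (26.5%) and in 14.1% of those of tested genes. The windows of Ndufa6 (chr15:82354242-82354541, minus strand) and Ndufs7 (chr10:80249199-80249498, plus strand) are shown as an example of each, with the matched letters in capitals and coordinates in GRCm38.p6.
Ndufa6 promoter: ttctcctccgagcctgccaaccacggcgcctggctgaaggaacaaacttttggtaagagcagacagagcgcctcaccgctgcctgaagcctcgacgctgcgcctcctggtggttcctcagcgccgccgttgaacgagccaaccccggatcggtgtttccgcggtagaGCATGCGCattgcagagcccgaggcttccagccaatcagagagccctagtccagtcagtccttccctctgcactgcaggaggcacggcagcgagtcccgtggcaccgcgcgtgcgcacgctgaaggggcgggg
Ndufs7 promoter: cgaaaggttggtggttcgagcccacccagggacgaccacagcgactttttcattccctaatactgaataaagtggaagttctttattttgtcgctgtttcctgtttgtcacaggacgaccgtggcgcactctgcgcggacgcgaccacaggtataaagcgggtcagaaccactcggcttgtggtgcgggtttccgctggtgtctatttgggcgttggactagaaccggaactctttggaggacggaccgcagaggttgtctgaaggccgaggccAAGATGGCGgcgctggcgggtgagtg
The factors themselves were measured too, with log2 fold changes of -0.01 ± 0.10 for Nrf1, -0.05 ± 0.09 for Gabpa and -0.01 ± 0.05 for Yy1.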

How the data were processed

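PolyA-selected RNA (TruSeq mRNA) from 8 hippocampi, 4 hpCTL and 4 hp708, was sequenced. The authors mapped reads to GRCm39 with STAR 2.7.8a, counted them per gene with featureCounts 1.6.4 and deposited these raw counts, unnormalized, as 1 table in which each animal has a column. Strand and multi-mapping settings are not stated in the methods. Samples were grouped by their labels, and columns were matched by animal number. Each library is 1 animal.

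Low genes were removed from the deposited counts by filterByExpr, and the remaining 17252 were tested with edgeR 4.0.16 (R 4.3.3), legacy quasi-likelihood, TMM scaling, 3 surrogate variables (svaseq, sva 3.50.0) and Benjamini-Hochberg adjustment. The study's methods name the likelihood ratio test of edgeR 3.32.1 with 3 surrogate variables, and a figure legend names the quasi-likelihood model. Standard errors came from the log2 fold change and the F statistic. DESeq2 1.42.0 was an alternative, and the others changed the surrogate variables, test, scaling, filter, replicate block and libraries. CPM and RPKM use TMM-scaled totals, and log2 CPM a prior count of 2. Single values were compared by an exact permutation test. On simulated counts of 17020 genes the quasi-likelihood test recovered 53 of 65 genes changed 4-fold, 32 of 67 changed 2-fold and 6 of 65 changed 1.41-fold, with 13 false calls.

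Of the 40659 identifiers, 39641 were named from GENCODE on GRCm39, in a later release than the one counted with. Copies of the mitochondrial genome were found with blastn 2.17.0 and exact 100-base windows. Promoter and microRNA sequences are from RefSeq.

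The members and lists were chosen with earlier results of these data known. Individual genes named are the mitochondrially encoded genes, the 7 nuclear core subunits, Ndufab1, Ndufa4 and Ndufa4l2, the nuclear members with the 5 highest and 5 lowest log2 fold changes, and the 3 highest and 3 lowest RPKM. The values of 1 of these genes are not reported here. Nnat is named as a check. Cox5b, Ndufaf1, Ppargc1a, Ppargc1b, Ttr, Nrf1, Gabpa and Yy1 are named in addition, singled out after their values were seen.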

Additional observations from a re-analysis of the deposited data

Results flagged for a closer look

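Values were set beside the other libraries of their group by Dixon's test at the 95% level, in 112 groups of 4. It set 30 values apart, where chance gives about 1 in 20 groups (5.6), and 20 of the 30 were in hpCTL replicate 1. The measures share this library and many of the same genes, and some genes were named for the lowest log2 fold changes in these data. The 5.6 is therefore not an expected number for these groups.

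Among single nuclear members, hpCTL replicate 1 stood above the other hpCTL libraries in Ndufs7 (91.3 CPM against 63.8 to 67.5), Ndufs8 (78.5 against 55.8 to 58.9), Ndufa4 (207 against 149 to 158), Ndufa6 (75.1 against 57.9 to 58.7), Ndufs6 (45.2 against 32.7 to 33.5), Ndufc2 (82.9 against 58.2 to 61.4) and Ndufb10 (130 against 92.1 to 95.6). In mt-Nd5 it stood below them, at 2346 against 3128 to 3205 CPM, and so did its ratio of mt-Nd5 to mt-Nd1, 0.466 against 0.709 to 0.733. Its mitochondrial ribosomal RNA took 0.898% of counts against 0.607% to 0.650%.

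In mean log2 CPM of whole lists, hpCTL replicate 1 was high in the nuclear members (6.20), the N module (6.35), the Q module (6.69), the nuclear core (6.97), complex II (7.23), complex III (7.03), complex IV (7.51), complex V (7.08) and the cytosolic ribosomal proteins (7.20), and low in the biogenesis regulators (4.52 against 4.88 to 4.89 in the other hpCTL libraries).

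hp708 replicate 2 held 9 of the other 10. It was high within its group in Ndufs3 (72.3 CPM against 61.7 to 63.2), Ndufs7 (72.2 against 61.3 to 62.5), Ndufa13 (116 against 98.3 to 101) and Ndufc2 (79.1 against 56.0 to 59.9). The same held in mean log2 CPM for the nuclear members (5.87), the Q module (6.34), the membrane arm (5.85) and complex III (6.72), and it was low in the biogenesis regulators (4.68 against 4.87 to 4.91). The last value was that of Ndufs8 in hp708 replicate 3, 51.0 CPM, where the rest of hp708 had 55.2 to 56.0.

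hpCTL replicate 1 had the most counts, 28462428, and hp708 replicate 2 the fewest, 22606824. The part of depth in these values was not tested.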

How the results depend on the processing

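The count of members past an FDR of 0.05 was 0 under all 24 alternatives, for the nuclear and the mitochondrially encoded genes. Their lowest FDR over the 25 settings lay between 0.174 and 1 for the nuclear and between 0.342 and 1 for the mitochondrially encoded genes, lowest without hp708 replicate 2. The 4 nuclear members lower at an unadjusted p below 0.05 became 0 without surrogate variables, 1 with the likelihood ratio test, 0 with DESeq2, and 0 to 6 when 1 library was left out (0 to 1 of them in the fits without surrogate variables, added after seeing the data). The 1 mitochondrially encoded gene became 0 without surrogate variables, 0 with no filter and 0 to 1 when 1 library was left out, without surrogate variables 0 in each. The cause was not tested.

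The replicate block gave 0 nuclear and 0 mitochondrially encoded genes at an unadjusted p below 0.05, and medians of -0.11 and -0.02. Deviations of same-numbered libraries correlated at 0.00882, -0.0249, -0.0411 and 0.0177, so that the libraries share only a number.

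The median log2 fold change of the nuclear members, -0.08, lay between -0.13 (no filter) and -0.08 under the other alternatives, and when 1 library was left out between -0.14 and -0.01 with surrogate variables and between -0.18 and 0.01 without, the 0.01 without hpCTL replicate 1. That of the mitochondrially encoded genes, 0.01, lay between -0.02 and 0.02, and between -0.05 and 0.06 when 1 library was left out.

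Of the named genes' log2 fold changes, 234 kept their direction and 6 did not. mt-Nd1 (0.0059) became -0.0198 without surrogate variables, -0.0166 with no filter and -0.0178 with the replicate block, and mt-Cytb (0.0122) became -0.0284, -0.0112 and -0.0269. When 1 library was left out 207 kept their direction and 33 did not, with none of the values called in any fit. The ranges were -0.0286 to 0.0365 for mt-Nd1, -0.0026 to 0.0745 for mt-Nd2, -0.581 to 0.0760 for mt-Nd4l, -0.0565 to 0.0363 for mt-Nd4, -0.148 to 0.0658 for mt-Nd6 and -0.0297 to 0.0591 for mt-Cytb. They were -0.141 to 0.0017 for Ndufv2, -0.137 to 0.130 for Ndufs4, -0.0822 to 0.0570 for Ndufs5, -0.0878 to 0.0438 for Ndufa7, -0.0767 to 0.0817 for Ndufa13, -0.190 to 0.0489 for Ndufb4, -0.126 to 0.0938 for Ndufc2 and -0.102 to 0.0216 for Ndufa2.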
